A study of Rapana venosa with 9 samples.

Results

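The rapa whelk (Rapana venosa) is a carnivorous marine snail whose swimming, filter-feeding larvae become crawling juveniles at metamorphosis. The references of the miR-9 and miR-79 family in its small RNA were miR-9-x, miR-9-y, miR-9-z and miR-79-y, which were taken by name from a table of 918 miRNA references, so 4 of 918 were members. Counts of small RNA tags were deposited for 9 libraries, 3 of each stage: precompetent larvae with 3 spiral whorls (Pre-CL), competent larvae with 4 spiral whorls (CL) and postlarvae, which are juveniles (PL). Each replicate was a pool of 40 to 100 hatchery-reared animals, for which the study's methods name no treatment. The methods also name the intestine of an individual as the source of the RNA, and which holds is not decided by the sources used here. In such bulk samples, fewer cells that make a miRNA and less of it per cell cannot be told apart. The table holds miRNAs alone, so the stages were not checked against marker genes here.

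A miRNA precursor folds back on itself, and its 5′ arm and its 3′ arm are cut out as a duplex of which one strand is loaded into an Argonaute protein. The loaded strand finds messenger RNAs mostly through its seed, the bases 2 to 8 from its 5′ end, and lowers their translation or stability. The miR-9 strand of the 5′ arm is conserved across animals with bilateral symmetry. In Drosophila, miR-9a restrains the number of sensory organ precursors through the transcription factor Senseless, and in vertebrates miR-9 is abundant in the developing nervous system. The strand of the opposite arm carries the seed of miR-79 of the nematode Caenorhabditis elegans, where miR-79 acts in neuronal migration.

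The deposited sequences show the family as a pair of arms, and they are printed because every comparison between the members rests on which bases they share. They are written as DNA with the seed in capitals. The fifth, miR-79-x, was not a member but is the only other reference of the table with a miR-9 or miR-79 name, and is given for comparison.
miR-9-z: tCTTTGGTtatctagctgtatga
miR-9-x: tCTTTGGTtatctagctgtatgat
miR-79-x: cCTTTGGTtatctagctgtatga
miR-9-y: aTAAAGCTaggttaccaaagg
miR-79-y: aTAAAGCTaggttaccaaaggt
The references fell into 2 seeds. The seed CTTTGGT occurred in 3 of 918 references, miR-9-z, miR-9-x and miR-79-x, and the seed TAAAGCT occurred in 2, miR-9-y and miR-79-y. From their sequences, miR-9-z, miR-9-x and miR-79-x are called the 5′ arm references here, and miR-9-y and miR-79-y the 3′ arm references, after the arms these strands come from in other animals. The suffixes x, y and z are not explained in the sources used here, and no precursor sequence was at hand.

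Within each arm the references had nearly the same sequence, and those that differ in length alone are called isoforms here. Without precursor sequences, whether they come from a single gene is not known. The 23 bases of miR-9-z are contained whole in the 24 bases of miR-9-x, which has 1 extra T at its 3′ end. Likewise the 21 bases of miR-9-y are contained in the 22 bases of miR-79-y, again with 1 extra 3′ T, so these 2 references carry different family names but the same seed and body. The reference miR-79-x differed from miR-9-z by T1C, counted from the 5′ end with the miR-9-z base first, and despite its name it has the seed of the 5′ arm. Across the arms, miR-9-x and miR-9-y differed at 16 of 21 bases read side by side. Folded against each other with RNAduplex, miR-9-z and miR-9-y formed a duplex of 18 base pairs with an energy of -21.8 kcal/mol. Because the authors counted tags with up to 2 mismatches, references that differ by 1 base can hold the same tags, and the division of reads between miR-9-z, miR-9-x and miR-79-x, or between miR-9-y and miR-79-y, is uncertain. The sum over all references was set against a library's tags annotated as miRNA, known and predicted together. It came to 101.7% to 102.2% of them in Pre-CL, 101.2% to 101.6% in CL and 99.2% to 99.5% in PL. The part of this difference between the stages in the results was not tested.

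The libraries held 3762511 to 6781384 miRNA counts each. Values are given as counts per 1000000 miRNA counts scaled with TMM factors (CPM), which correct for a few abundant miRNAs taking up a library, and which lay between 0.733 and 1.50. A count of 0 would allow up to 3 counts, or 0.399 to 0.694 CPM on this scale, and no member was at 0 in any library. Reads removed as too short made up 4.29% to 14.5% in Pre-CL, 5.46% to 6.26% in CL and 9.002% to 19.0% in PL, and the TMM factors were 0.733 to 1.005 in Pre-CL, 0.789 to 0.997 in CL and 1.15 to 1.50 in PL. Both were higher in PL than in CL, and the part of the short reads in the results was not tested.

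The family was dominated by a single isoform. Over all libraries miR-9-z held 414686 counts, or 97.0% of the counts of the 4 members, against 2.34% for miR-9-x, 0.605% for miR-9-y and 0.0961% for miR-79-y. By mean level, miR-9-z stood at rank 24 of 918 references in Pre-CL, 26 in CL and 18 in PL. The 3′ arm references were scarcer and moved up more ranks, with miR-9-y at rank 94 in Pre-CL, 86 in CL and 65 in PL, and miR-79-y at rank 158, 159 and 99 in the same stages. Together the 4 members took 0.659%, 0.892% and 0.373% of all miRNA counts in the Pre-CL libraries, 0.544%, 0.502% and 0.481% in CL, and 1.51%, 1.45% and 1.55% in PL. The PL libraries were the highest on this unscaled share, and Pre-CL replicate 3 was the lowest of all.

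The 5′ arm strand miR-9-z, the form identical over its length to miR-9a of Drosophila, measured 7352, 8642 and 4972 CPM in Pre-CL replicates 1, 2 and 3, 5296, 6201 and 5396 CPM in CL, and 10999.5, 9341 and 13033 CPM in PL. All PL libraries lay above all larval libraries, while the Pre-CL range enclosed the CL range. The longer isoform miR-9-x measured 149, 196 and 106 CPM in Pre-CL, 143, 134 and 155 CPM in CL, and 292, 237 and 305 CPM in PL. It was far below miR-9-z in level, and here too all PL libraries lay above all larval ones. Such separation was common. Of the 214 references kept for testing, 33.6% had all PL libraries above all CL libraries and 36.9% had them above all Pre-CL libraries. For comparison, miR-79-x measured 67.0, 97.6 and 35.6 CPM in Pre-CL, 47.0, 50.7 and 39.9 CPM in CL, and 90.7, 83.9 and 115 CPM in PL, where Pre-CL replicate 2 lay within the PL range.

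The 3′ arm strand miR-9-y measured 25.1, 31.0 and 7.86 CPM in Pre-CL, 14.6, 24.2 and 12.4 CPM in CL, and 83.9, 88.3 and 136 CPM in PL. The lowest PL library was well above the highest larval one, and the larval stages overlapped. Its isoform miR-79-y measured 3.18, 4.98 and 1.85 CPM in Pre-CL, 1.48, 4.54 and 0.902 CPM in CL, and 14.01, 13.3 and 23.3 CPM in PL. The larval values of miR-79-y rest on few reads, 17, 31 and 8 counts in the Pre-CL libraries and 10, 24 and 4 in CL, against 70, 100 and 147 counts in PL. Pre-CL replicate 3 was the lowest Pre-CL library for each of the 5 references, and Pre-CL replicate 2 the highest. Reads removed as too short were 14.5% in Pre-CL replicate 3, against 4.29% and 4.30% in the other Pre-CL libraries, and the part of this in its low values was not tested.

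**Figure D1:**
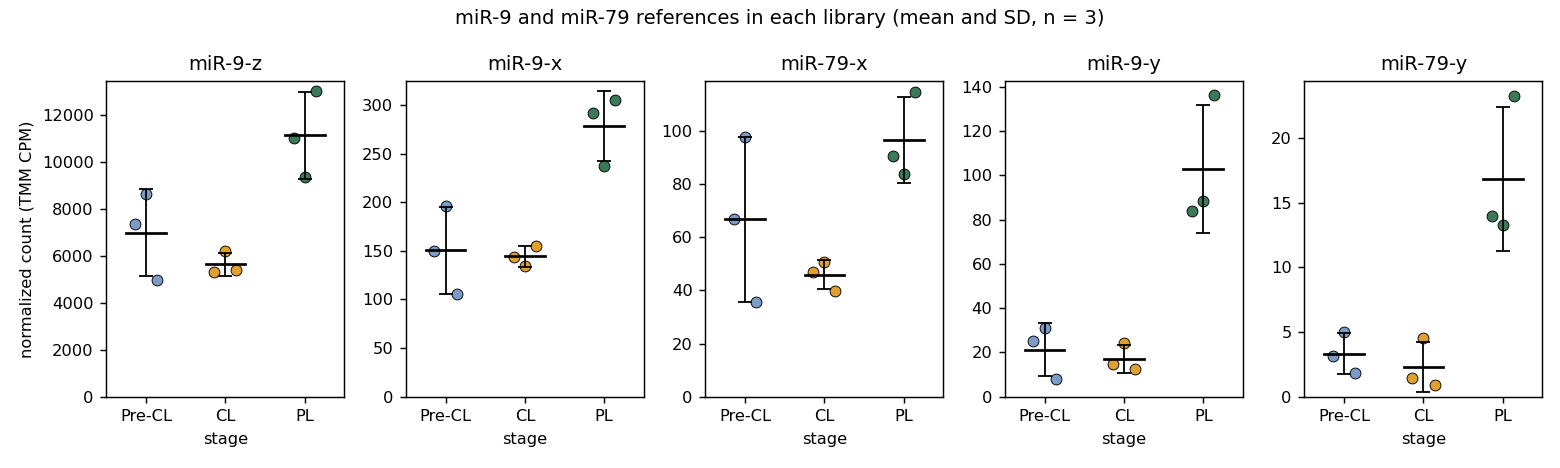
Normalized count (TMM CPM, linear axes that start at 0 and differ between panels) of miR-9-z, miR-9-x, miR-79-x, miR-9-y and miR-79-y in each library, with 1 point for each of 3 libraries a stage and the mean ± SD as bars. In the panels of the 4 members all PL points lie above all larval points. Of the 214 references tested, 33.6% had PL above all CL libraries and 36.9% had PL above all Pre-CL libraries. Relative to the level of each reference, the gap is widest for miR-9-y (83.9 to 136 CPM in PL) and miR-79-y (13.3 to 23.3 CPM in PL).

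Between competent larvae and postlarvae, the step that spans metamorphosis, the 3′ arm strands rose by more than the fold limit and the 5′ arm strands were about as far apart as that limit. A reference was called at an adjusted p under 0.05 by edgeR's quasi-likelihood test and a fold change over 2. Of the 4 members, 2 were called higher in PL, and 22.4% of the 214 references tested were called higher in this comparison (36.9% in either direction). The 2 called were miR-9-y, at 103 ± 29.0 CPM in PL and 17.1 ± 6.27 CPM in CL (SD, n = 3 each), and miR-79-y, at 16.9 ± 5.57 CPM in PL and 2.31 ± 1.95 CPM in CL. The log2 fold change of miR-9-y was 2.59 ± 0.53 (SE, 6.01-fold, edgeR adjusted p = 0.0035), and that of miR-79-y was 2.85 ± 0.64 (7.23-fold, edgeR adjusted p = 0.0055). Without CL replicate 2, where miR-79-y was highest among CL libraries, its log2 fold change was 3.79. Both calls held in every alternative in which the reference was tested.

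The members of the 5′ arm passed the p limit as reported but not the fold limit. miR-9-z averaged 11124 ± 1849 CPM in PL and 5631 ± 496 CPM in CL, a log2 fold change of 0.98 ± 0.23 (1.98-fold, edgeR adjusted p = 0.0072). miR-9-x averaged 278 ± 35.9 CPM in PL and 144 ± 10.6 CPM in CL, a log2 fold change of 0.95 ± 0.26 (1.93-fold, edgeR adjusted p = 0.018). Their calls turned on the scaling and on single libraries. With clean reads, total miRNA counts or annotated miRNA tags as the library size, all 4 members were called, and the count was also 4 without Pre-CL replicate 2 or without PL replicate 2, and 3 without CL replicate 2, CL replicate 3 or PL replicate 1. The adjusted p of miR-9-x was over 0.05 in 8 of 19 alternative fits (up to 0.125), among them those without CL replicate 1, 2 or 3 and without PL replicate 1 or 3, and that of miR-9-z was over 0.05 in 0 of 19. The related reference miR-79-x was past both limits at 1.07 ± 0.37 (2.10-fold, edgeR adjusted p = 0.040), a call lost in 11 of 20 alternatives.

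All 4 members had PL libraries that did not overlap the CL libraries, higher in PL, as did 33.6% of the 214 references tested. The median log2 fold change of the 4 was 1.78, which lies between the values of the arms, beside 0.20 over all references tested. The 4 are pairs of isoforms that can hold the same tags, so they are not separate observations. Ordered from the highest fold change of the 214, miR-79-y was at place 28, miR-9-y at 31, miR-9-z at 69 and miR-9-x at 72.

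Between precompetent larvae and postlarvae the same arms were on the same sides of the limits. Of the 4 members, 2 were called higher in PL, where 28.5% of the 214 references tested were called higher and 50.5% in either direction. miR-9-y was at 103 ± 29.0 CPM in PL and 21.3 ± 12.02 CPM in Pre-CL, a log2 fold change of 2.26 ± 0.52 (4.81-fold, edgeR adjusted p = 0.0046). miR-79-y was at 16.9 ± 5.57 CPM in PL and 3.34 ± 1.57 CPM in Pre-CL, a log2 fold change of 2.32 ± 0.62 (4.98-fold, edgeR adjusted p = 0.010). This comparison and the one with CL share the PL libraries, so they are not independent.

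The 5′ arm members were again under the fold limit between PL and Pre-CL. miR-9-z averaged 11124 ± 1849 CPM in PL and 6989 ± 1862 CPM in Pre-CL (log2 fold change 0.67 ± 0.23, 1.59-fold, edgeR adjusted p = 0.031). miR-9-x averaged 278 ± 35.9 CPM in PL and 150 ± 45.0 CPM in Pre-CL (0.89 ± 0.26, 1.85-fold, edgeR adjusted p = 0.017). All 4 members were called with total miRNA counts or annotated tags as the library size, and without Pre-CL replicate 2, and 3 without PL replicate 2. The adjusted p of miR-9-z was over 0.05 in 10 of 19 alternative fits (up to 0.136), among them those without Pre-CL replicate 1 or 3, without any 1 CL library and without PL replicate 1 or 3. That of miR-9-x was over 0.05 in 6 of 19 (up to 0.0752), among them those without Pre-CL replicate 1 and without PL replicate 1 or 3. All 4 also had PL libraries above all Pre-CL libraries, as did 36.9% of the 214 tested. Their median log2 fold change, again over pairs of isoforms and between the values of the arms, was 1.58, beside 0.06 over all references tested.

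Between the larval stages no change of the family was detected. Of the 4 members, 0 were called by edgeR or by DESeq2 and 0 had an unadjusted p under 0.05, while 19.6% of the 214 references tested were called, 10.3% higher and 9.35% lower in CL. The log2 fold change of CL over Pre-CL was -0.31 ± 0.23 for miR-9-z, -0.06 ± 0.26 for miR-9-x, -0.32 ± 0.50 for miR-9-y and -0.54 ± 0.62 for miR-79-y, with the lowest edgeR adjusted p at 0.37. Without CL replicate 2 that of miR-79-y was -1.40, and still not called (edgeR adjusted p = 0.191). With standard errors of 0.50 and 0.62, a smaller difference of the 3′ arm members between the larval stages was not detectable at this spread. In the order of the stage means, PL was highest for each member and Pre-CL was above CL, and the 2 larval neighbours of that order did not differ beyond their spread.

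**Figure D2:**
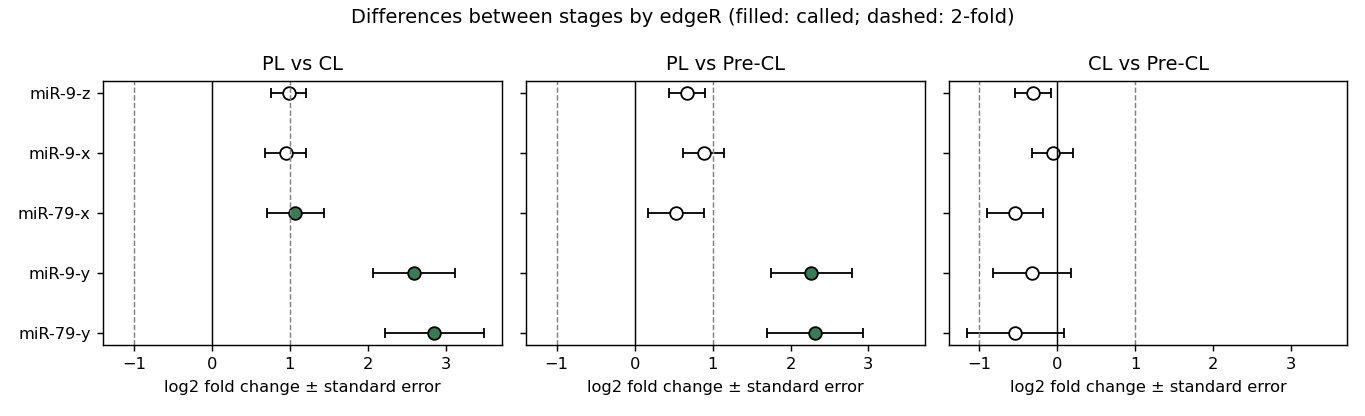
Log2 fold change with its standard error (edgeR, 3 libraries a stage) of the 5 references in PL against CL, PL against Pre-CL and CL against Pre-CL, with filled points for called references and dashed lines at a 2-fold difference. The points of miR-9-y and miR-79-y lie past the dashed line in both panels with PL, between 2.26 and 2.85, while those of miR-9-z and miR-9-x lie between 0.67 and 0.98.

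Ratios between references inside a library need no library size, and they set the arms against each other directly. For every 100 counts of miR-9-z, the Pre-CL libraries held 0.341, 0.359 and 0.158 counts of miR-9-y, the CL libraries 0.276, 0.390 and 0.230, and the PL libraries 0.762, 0.945 and 1.04. The PL libraries lay apart from all larval ones, and even there the 3′ arm strand held at most 1.04 counts for 100 of its partner. The ratio was 3.10-fold higher in PL than in CL (log2 difference 1.63) and 3.37-fold higher in PL than in Pre-CL (1.75). For each of these, the exact two-sided permutation test gave p = 0.1, the smallest that 3 against 3 libraries allow, and 0.257 after adjustment over the 18 tests of 6 ratios. This exact test cannot pass a limit of 0.05 with 3 libraries a stage.

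The other ratios across the arms had the same arrangement. Per 100 counts of miR-9-x, miR-9-y averaged 13.3 ± 5.15 in Pre-CL, 12.1 ± 5.28 in CL and 36.8 ± 7.94 in PL. PL was 3.17-fold higher than CL and 2.88-fold higher than Pre-CL, each with an exact permutation p = 0.1. Per 100 counts of miR-79-x, miR-79-y averaged 5.02 ± 0.236 in Pre-CL, 4.79 ± 3.64 in CL and 17.2 ± 2.68 in PL, so that PL was 4.04-fold higher than CL and 3.31-fold higher than Pre-CL (exact permutation p = 0.1 each). In both ratios no PL library overlapped a larval one. Between CL and Pre-CL the log2 differences of these ratios were -0.14 for miR-9-y to miR-9-x, 0.12 for miR-9-y to miR-9-z and -0.29 for miR-79-y to miR-79-x, with overlapping libraries in each.

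Inside an arm the ratios of references did not separate the PL from the CL libraries. Per 100 counts of miR-9-z there were 2.14 ± 0.118 counts of miR-9-x in Pre-CL, 2.58 ± 0.373 in CL and 2.51 ± 0.158 in PL. The log2 difference of PL and CL was -0.03 (exact permutation p = 0.8). The ratio was a little higher in PL than in Pre-CL without overlap of the libraries (log2 difference 0.23, exact permutation p = 0.1). Per 100 counts of miR-9-y there were 17.4 ± 5.55 counts of miR-79-y in Pre-CL, 12.04 ± 5.98 in CL and 16.3 ± 1.08 in PL, with an exact permutation p = 0.4 for PL against CL and 0.9 for PL against Pre-CL. The larval values of this ratio ranged from 7.27 to 23.5, with numerators as low as 4 counts. Per 100 counts of miR-9-x there were 42.7 ± 8.28 counts of miR-79-x in Pre-CL, 32.1 ± 6.07 in CL and 34.7 ± 3.32 in PL, with no exact permutation p under 0.2 for any pair of stages. These ratios also depend on how tags that fit more than 1 reference were assigned, which the sources used here do not describe.

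**Figure D3:**
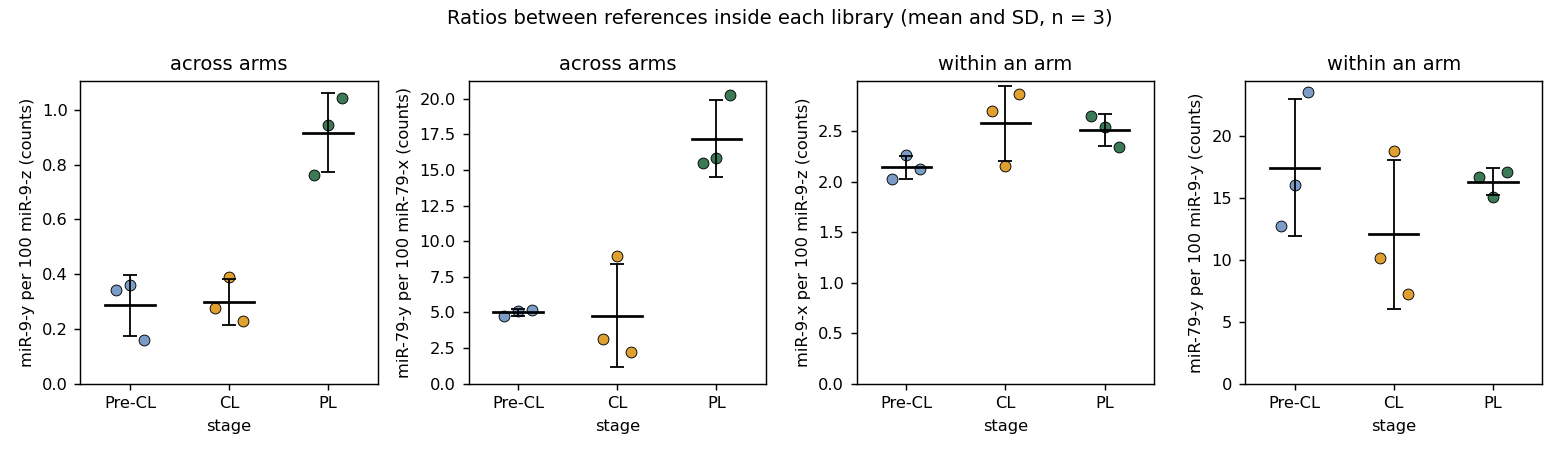
Counts of one reference per 100 counts of another inside each library (linear axes from 0), with 3 libraries a stage and the mean ± SD, for miR-9-y to miR-9-z and miR-79-y to miR-79-x across the arms and for miR-9-x to miR-9-z and miR-79-y to miR-9-y within an arm. Across the arms the PL points stand above all larval points (0.762 to 1.04 for miR-9-y to miR-9-z), and within an arm the points of PL and CL overlap.

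If each tag was counted once, the sum over the references of each arm does not depend on how tags were divided inside it. Whether tags were counted once is not described in the sources used here. In each larval library the sum over all references exceeded the tags annotated as miRNA (101.2% to 102.2%), so the condition may not hold. Its part in the arm sums was not tested. The arm sums were chosen after the data had been seen. The 3′ arm references made up 0.372%, 0.401% and 0.190% of the counts of all 5 references in the Pre-CL libraries, 0.293%, 0.448% and 0.237% in CL, and 0.853%, 1.04% and 1.17% in PL. The Wilson 95% interval of the lowest PL library was 0.781% to 0.931% and that of the highest larval library, CL replicate 2, was 0.382% to 0.525%, for counting error only. The mean share was 0.321% ± 0.115 in Pre-CL, 0.326% ± 0.109 in CL and 1.02% ± 0.160 in PL (SD, n = 3 each). With the sums tested in place of the single references, the 3′ arm was 2.62 ± 0.53 higher on the log2 scale in PL than in CL (edgeR adjusted p = 0.0033), and the 5′ arm 0.98 ± 0.23 higher (edgeR adjusted p = 0.0072, under the fold limit). Against Pre-CL, the 3′ arm sum was 2.29 higher (edgeR adjusted p = 0.0044) and the 5′ arm sum 0.69 higher (edgeR adjusted p = 0.028) in PL. The log2 ratio of the arm sums was 1.69 higher in PL than in CL, with no overlap of the libraries and an exact permutation p = 0.1.

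The profiles of the members over the 9 libraries were close to each other, whichever arm they came from. The Pearson correlation of log2 CPM was 0.96 between miR-9-z and miR-9-y, 0.94 between miR-9-z and miR-9-x, and 0.86 between miR-9-x and miR-79-y, the lowest pair of members. These values describe 9 libraries that share stages and normalization. Among the 209 other references tested, the profile most like miR-9-z was that of miR-281-y (0.98), followed by miR-236-y (0.97) and miR-1175-x (0.96). For miR-9-y they were miR-317-y and miR-8-x (0.98 each) and miR-1992-y (0.97), and for miR-9-x they were miR-1992-y (0.97), miR-317-y and miR-281-y (0.96 each). For miR-79-y they were miR-8-x (0.96), a miRNA predicted by the authors with the sequence cAGGAGACtggctggtatgctg (0.94) and miR-1175-x (0.94).

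A list of other miRNAs known from neurons or sensory cells of animals (miR-124, miR-7, miR-137, miR-153, miR-219, miR-190, miR-182, miR-183, miR-96 and miR-263) moved in both directions. Of 13 references on it, 11 were tested. Between PL and CL, 3 were called higher and 3 lower, with a median log2 fold change of 0.30, where 22.4% of all references tested were called higher and 14.5% lower, with a median of 0.20. Between PL and Pre-CL, 2 were higher and 3 lower (median 0.32), beside 28.5% and 22.0% of all (median 0.06). Between CL and Pre-CL, 1 was higher and 0 lower (median 0.12), beside 10.3% and 9.35% of all (median -0.29). The higher references between PL and CL were miR-190-x (1.49), miR-182-x (2.44) and miR-219-x (1.58), and the lower ones were miR-96-x (-1.50), miR-183-x (-7.16) and miR-263-x (-6.87), where the last 2 have the same sequence in the table.

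The table of miRNA and target pairs links the family to transcripts of an earlier transcriptome study of the same stages. The authors predicted targets, required a duplex energy of at most -18 kcal/mol, and kept pairs of which the miRNA and the transcript went in opposite directions over the stage means. The levels are the authors' mean FPKM of each stage (fragments scaled to transcript length and sequencing depth), with no replicates. The table holds 30524 pairs of 195 miRNAs with 11401 transcripts, and 341 of these transcripts were paired with at least 1 member. miR-9-y had 180 targets, miR-79-y 174, miR-9-z 155 and miR-9-x 147. A protein description from Swissprot was given for 145 of the 341.

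The lists followed the arms. miR-9-x and miR-9-z shared 142 targets, which were 96.6% of the miR-9-x list and 91.6% of the miR-9-z list. miR-9-y and miR-79-y shared 161, which were 89.4% and 92.5% of their lists. Across the arms, 12 transcripts were on both sides, 7.50% of the 160 targets of the 5′ arm members and 6.22% of the 193 of the 3′ arm members, and 6 were paired with all 4. Each pair of isoforms has 1 seed and differs by 1 terminal base, so their lists are not separate observations.

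All 341 targets were highest in CL and lower in PL than in CL. This direction was fixed by how the pairs were kept, since each member had its lowest mean in CL and its highest in PL, and nothing is read from it. Among all pairs, 4482 of 11401 transcripts were highest in CL and 74.3% were lower in PL than in CL. The median log2 ratio of PL to CL, with 1 FPKM added to both, was -0.82 for the 341 and -0.44 for all transcripts of the table. By member it was -0.84 for miR-9-x and miR-9-z, -0.82 for miR-9-y and -0.81 for miR-79-y.

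Among the described targets of miR-9-x and miR-9-z, those with the largest ratio between PL and CL were the same 5 for both. Heterogeneous nuclear ribonucleoprotein A1, which binds pre-mRNA in splicing, was listed at 194 FPKM in Pre-CL, 244 in CL and 55.7 in PL, the most abundant of the named targets. Carbonic anhydrase 2, which interconverts carbon dioxide and bicarbonate, was at 11.4, 27.1 and 5.15 FPKM in the same order of stages. Chromatin assembly factor 1 subunit A-A, which deposits histones on newly copied DNA, was at 6.26, 8.49 and 1.63 FPKM. The other 2 were listed at or near 0 outside CL, cytochrome b of the respiratory chain at 0.03, 7.59 and 0 FPKM and a mitochondrial NAD(P) transhydrogenase at 0, 3.54 and 0 FPKM.

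The largest described targets of miR-9-y and miR-79-y were again shared by both, and all 5 were listed under 0.05 FPKM outside CL. They were NADH-ubiquinone oxidoreductase chain 1 (17.2 FPKM in CL) and chain 5 (15.9 FPKM), subunits of respiratory complex I, a Y-box factor homolog (12.6 FPKM), which binds nucleic acids, and the zinc finger transcription factors Krueppel-like factor 5 (6.58 FPKM) and Early growth response protein 3 (4.10 FPKM). All were listed at 0 in PL. Across the 341 targets, 19 were under 0.05 FPKM in both Pre-CL and PL, with 1.12 to 17.2 FPKM in CL. Of these 19, 11 had a database protein match and 8 of the 11 matches were to the Pacific oyster Crassostrea gigas, while 22 of the 146 matches among the other 322 targets were to that oyster. In the whole table, 84 of 121 matches among the 168 transcripts with this pattern were to the oyster, against 680 of 4685 among the other 11233. The 5 transcripts named here were among the 19, as were cytochrome b and the mitochondrial NAD(P) transhydrogenase named above. Whether their own matches were to the oyster is not given here. The part of the oyster matches in the target values was not tested.

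**Figure D4:**
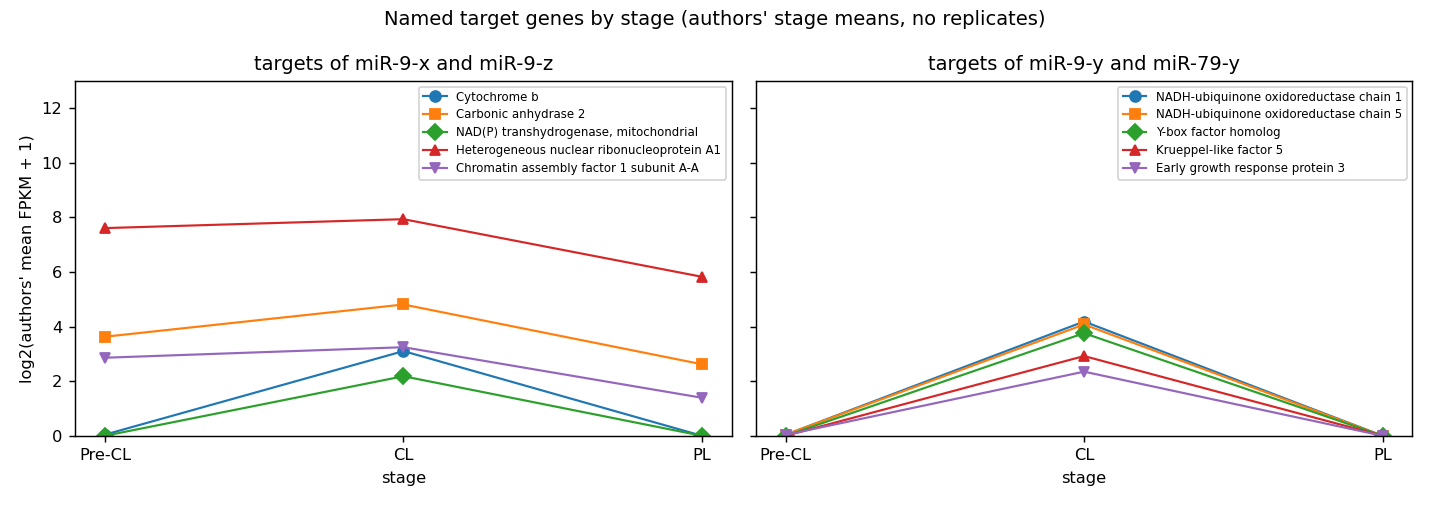
Levels of the 5 described targets with the largest difference between PL and CL, for miR-9-x and miR-9-z on the left and miR-9-y and miR-79-y on the right, as log2 of the authors' mean FPKM of each stage plus 1. Each line is 1 transcript with no replicates, all peak in CL by the way pairs were kept, and heterogeneous nuclear ribonucleoprotein A1 is highest throughout (244 FPKM in CL).

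Of the transcripts paired with members of both arms, PHD finger protein 6, a chromatin-associated protein, was paired with all 4 and listed at 2.5 FPKM in Pre-CL, 3.30 in CL and 1.23 in PL. Paired with 3 members were protein disulfide-isomerase A4, which helps proteins fold in the endoplasmic reticulum (13.7, 25.25 and 10.6 FPKM in that order), L-xylulose reductase, a sugar-reducing enzyme (16.3, 19.1 and 13.3 FPKM), and a transcript described as uncharacterized protein F54H12.2 (1.99, 7.59 and 1.66 FPKM).

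Genes that miR-9 is known to repress in other animals were looked for by words in the descriptions of the targets, among them Senseless or Gfi1, LIM domain only, hairy and Hes, RE1-silencing transcription factor, tailless and ELAV. Of the 341 targets 0 matched, and 24 of the 11401 transcripts of the table (0.211%) did. At so low a share, 0 of 341 cannot say whether the family targets such genes. For cilia, which larvae swim with and lose at metamorphosis, 0 of 341 matched, against 0.623% of the table. For synapse and neuron, 1 matched, Synaptotagmin-7, a calcium sensor of vesicle release, which was paired with miR-9-y and miR-79-y and listed at 2.17 FPKM in Pre-CL, 3.62 in CL and 1.94 in PL, against 0.386% of the table. For digestion and for the Notch pathway, 1 matched each, Phospholipase A-2-activating protein and Serrate RNA effector molecule homolog, and both matched by a word of their names without being a digestive enzyme or a member of that pathway. Only the described transcripts could match. All 341 were highest in CL by the way pairs were kept, against 4482 of the 11401 in the table. Transcripts with another course over the stages, such as a steady fall, could not be among the 341. The shares of the table are therefore not a like background, and nothing is read from these matches.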

How the data were processed

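Small RNA of 9 libraries was sequenced on an Illumina HiSeq instrument. The authors removed tags of other RNA classes, aligned clean reads to miRBase 21, predicted further miRNAs with MIREAP and deposited raw tag counts of each reference, counted with up to 2 mismatches. The deposited TPM columns are treated as a score, since they equal counts per 1000000 known and predicted miRNA tags whereas the study's formula divides by clean reads, and they were not tested. The authors also deposited read numbers of each cleaning step and, in the pair table, FPKM of each stage as means. That table further holds the authors' mean TPM, log2 ratios, p-values and correlations, which were not used. The genome build is not given in the sources used here.

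The test of the counts was that of edgeR 4.0.16 under R 4.3.3 (TMM, filterByExpr by stage, quasi-likelihood test, two-sided, Benjamini-Hochberg adjustment over 214 references that passed of 918), with all 9 libraries in one fit without covariates. All 4 members passed. The common biological coefficient of variation was 0.456. Called references had an adjusted p under 0.05 and over 2-fold difference. The standard error is the log2 fold change divided by the root of the F statistic. Ratios inside a library took 0.5 added to both counts on the log2 scale and were compared with exact permutation tests (scipy 1.17.1). Duplexes came from RNAduplex (ViennaRNA 2.7.2). The study's methods call the samples of a stage biological replicates and do not say how they were kept apart. The p-values therefore set differences against the spread between these samples only. No 2 libraries agreed within sampling noise. The edgeR and ratio steps were tested on simulated data.

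The members, gene lists and tests were chosen with earlier results of these data known. Named were the members, other miR-9 or miR-79 references, references sharing sequence or seed with them, the 3 tested references with the most similar profile to each member, the 5 described targets of each member with at least 1 FPKM in a stage and the largest log2 ratio of PL to CL, described targets of 3 or more members, and targets on the word lists. The miRNAs of the neural list were named after their values were seen. Alternatives were DESeq2 1.42.0, limma 3.58.1, other library sizes, filters, features and samples, no fold limit, and leaving out each library.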

Additional observations from a re-analysis of the deposited data

How the results depend on the processing

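The number of members called between PL and CL, 2 as reported, was 4 with total miRNA counts, clean reads or annotated miRNA tags as the library size, with limma and with no fold limit, 1 with a filter on a mean over 10 per 1000000 clean reads (which removed miR-79-y, leaving 3 members tested), and 2 to 4 leaving out each library. Between PL and Pre-CL, 2 as reported, it was 4 with total counts, annotated tags or no fold limit, 3 with clean reads or limma (where miR-9-x was called), 1 with that filter, and 2 to 4 leaving out each library. It was 4 in PL against CL without Pre-CL replicate 2 or PL replicate 2, and 4 in PL against Pre-CL without Pre-CL replicate 2. Between CL and Pre-CL it was 0 in each alternative. The added members were miR-9-z and miR-9-x, whose log2 fold changes between PL and CL were 1.55 and 1.51 with total counts, 1.25 and 1.21 with clean reads, and 1.52 and 1.48 with annotated tags. Leaving out each library, miR-9-y ranged from 2.30 to 2.92 in PL against CL and from 1.86 to 2.82 in PL against Pre-CL, and miR-79-y from 2.54 to 3.79 and from 1.997 to 2.91. In CL against Pre-CL miR-79-y ranged from -1.40 (without CL replicate 2) to -0.11.

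Library size moved all references. The median log2 fold change between PL and CL was 0.20 with TMM, 0.79 with total counts, 0.49 with clean reads and 0.76 with annotated tags, and the calls were 48 higher and 31 lower with TMM, 76 and 17, 58 and 26, and 75 and 19 with the others in that order. Between PL and Pre-CL they were 61 and 47 with TMM, 81 and 31 with total counts or annotated tags, and 71 and 42 with clean reads. The stricter filter left 98 references, of which 44 were called between PL and CL in place of 79 of 214, 52 between PL and Pre-CL in place of 108, and 20 between CL and Pre-CL in place of 42, and leaving out CL replicate 2 gave 27 between CL and Pre-CL.

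The signs that turned belonged to values near 0. For CL against Pre-CL, miR-9-x was -0.06, 0.0131 with DESeq2, 0.0504 without a filter and -0.28 to 0.26 leaving out each library, and miR-9-y was -0.74 to 0.0939 leaving out each library. Leaving out each library, the log2 ratios between CL and Pre-CL ranged from -0.51 to 0.11 for miR-9-y to miR-9-x, -0.26 to 0.32 for miR-9-y to miR-9-z, -0.84 to 0.0816 for miR-79-y to miR-79-x and -0.29 to 0.25 for the arm sums. Between PL and CL they ranged from -0.15 to 0.0525 for miR-9-x to miR-9-z and -0.0281 to 0.25 for miR-79-x to miR-9-x, and between PL and Pre-CL from -0.29 to 0.17 for miR-79-y to miR-9-y. The causes were not tested.

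Replicate numbers showed no sign of pairing the samples, although with 3 libraries a stage such a check cannot exclude it. Over 9 pairs of libraries with the same number, their deviations from the stage means correlated between -0.279 and 0.289, with 3 over 0.1. Pairs with different numbers ranged from -0.454 to 0.403. With a replicate block, the members called stayed at 2, 2 and 0 in PL against CL, PL against Pre-CL and CL against Pre-CL, the edgeR adjusted p of miR-9-x was 0.0566 in PL against CL and 0.0517 in PL against Pre-CL and that of miR-9-z 0.0619 in PL against Pre-CL, and 68 references were called between PL and CL in place of 79.

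The larval counts of miR-79-y, 4 to 31 a library, limit its fold changes, and 3 libraries a stage limit each exact test to 0.1. The stage means of the targets have no spread, so no target value can be set against replicate error.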
